A study of Mus musculus with 14 samples.

Results

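The collagen gene family was taken as every row of the count table whose gene symbol has the form Col, a number, a and a number. This rule, which used no measured value, found 41 genes among the 25212 rows. They were described in 3 classes, with 10 fibrillar chains, 6 basement membrane chains and 25 other chains. The basement membrane class held type IV chains alone, and the multiplexins Col18a1 and Col15a1 were placed among the other chains. The other chains comprised 7 fibril-associated, 6 beaded-filament, 4 transmembrane, 3 network-forming, 2 multiplexin and 1 anchoring fibril chain and 2 chains of no such type. Type XI chain Col11a1, type IX chain Col9a1 and type XIX chain Col19a1 were not analysed here.

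Collagens are extracellular proteins built from chains that wind around each other into a rope-like helix. Fibrillar collagens form the cables that accumulate in scar tissue, and the collagens of basement membranes form the sheets on which epithelium and endothelium rest. In healthy liver, fibrillar collagen is largely kept to portal tracts and vessel walls, and in fibrosis it is laid down mainly by activated stellate cells and portal fibroblasts.

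Liver RNA of 14 male C57BL/6 mice was sequenced, with 1 library per liver. All mice received the high-fat diet (HFD) from a young age and stayed on it, so diet-induced obesity (DIO) is also the background of both operated groups. The DIO group (n = 5) had no surgery. In the GB-IL group (n = 4) bile was led from the gallbladder to the ileum, with the common bile duct tied off, and the RYGB group (n = 5) had Roux-en-Y gastric bypass. The labels give 8 weeks after surgery, or after no surgery for DIO, as the time of collection, although the study's own text is not uniform on this time, and they give no age. Livers of sham-operated mice were not analysed here, so an operation as such and its bile or bypass arrangement cannot be told apart. Each library held between 18223135 and 28656631 counts. On the first principal component of all tested genes (48.5% of the variance), GB-IL livers 1 and 2 stood far from every other liver, with scores of 134 and 106. The score of GB-IL liver 4 was -35.3, among those of the DIO livers (-45.7 to -21.9). GB-IL liver 3 and RYGB liver 5 lay between, at 20.1 and 17.4.

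The comparisons ask how collagen transcripts differed after each operation from the unoperated obese liver, and how the operations differed from each other. Counts were scaled for library size by TMM (CPM). They were also divided by exon length in kilobases (RPKM), the scale on which levels of different genes are set side by side. The family held 26 genes with enough counts to be tested (8 fibrillar, 4 basement membrane and 14 other) and 15 with too few. The filter asked for at least 0.492 CPM in at least 4 livers and a total count of at least 15. Col22a1, Col7a1 and Col8a1 were kept with fewer than 4 livers at that level outside GB-IL, and Col7a1 also outside RYGB. The livers expressed the hepatocyte markers, with all 6 listed genes counted and a summed level of 86152 to 154259 CPM.

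The plot of all tested collagens by liver shows where the family moved.

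**Figure D1:**
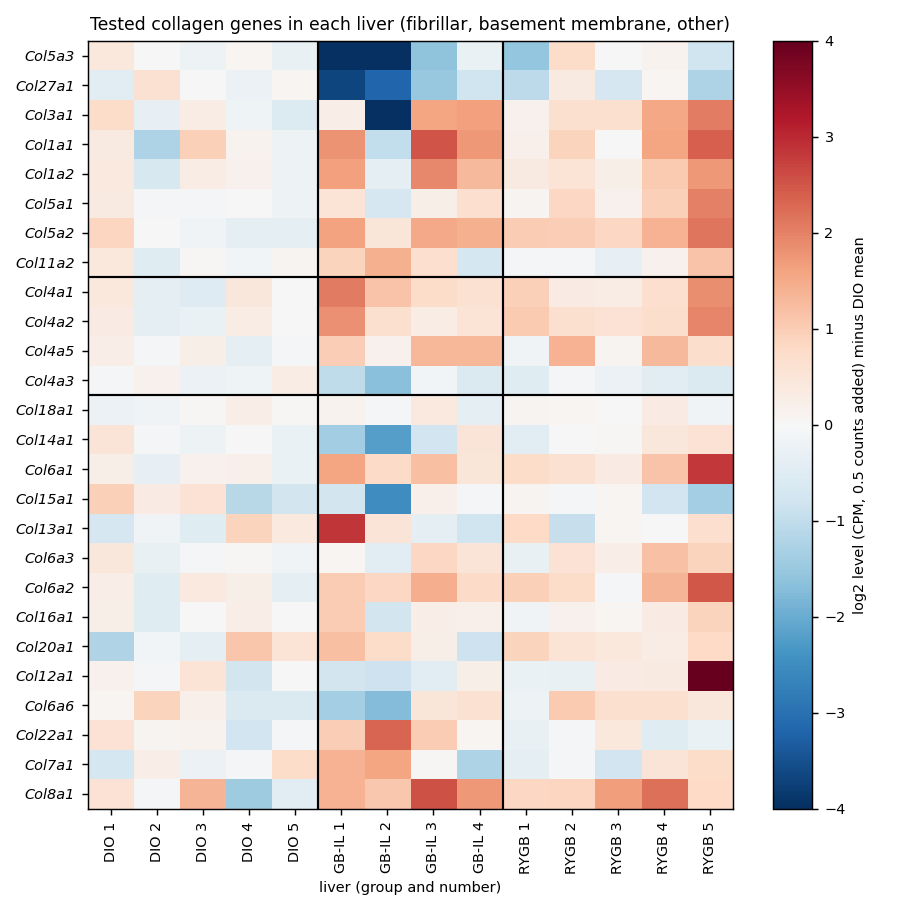
Heat map of the 26 tested collagen genes (rows, in the order fibrillar, basement membrane, other) in the 14 livers (columns). Colour is the log2 level (CPM with 0.5 counts added) minus the mean of the 5 DIO livers, and values beyond 4 or -4 take the end colours. GB-IL livers 1 and 2 are deep blue for Col5a3 and Col27a1, GB-IL liver 2 also for Col3a1, and RYGB liver 5 is dark red for Col12a1.

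In unoperated obese liver, the collagen message was mostly Col18a1. Col18a1 (ENSMUSG00000001435, chromosome 10, 77052178 to 77166548, GENCODE M21 on GRCm38, which is mm10, as for all gene positions given here) encodes the chain of the multiplexin type XVIII, the precursor of endostatin, and hepatocytes are a known source of it. It stood at 135 ± 18.3 RPKM in DIO (mean ± SD, n = 5). That was 79.5% ± 4.15 of the summed collagen RPKM. The next levels, at 7.36 ± 1.73 and 7.35 ± 1.50 RPKM, belonged to the fibril-associated chain Col14a1 and the type V chain Col5a3, and these did not differ beyond their spread. Then came the basement membrane chains Col4a1 (3.76 ± 1.11 RPKM) and Col4a2 (2.83 ± 0.623 RPKM), followed within overlapping spreads by Col27a1 (1.94 ± 0.581 RPKM), Col3a1 (1.87 ± 0.704 RPKM) and Col6a1 (1.76 ± 0.321 RPKM). The type I chains, the bulk of scar collagen, were lower at 0.826 ± 0.412 RPKM for Col1a1 and 0.769 ± 0.203 RPKM for Col1a2, a pair that again did not differ beyond its spread. These levels depend on the exon lengths, which count all annotated exon bases, 6563 for Col1a1 and 12426 for Col1a2. Before division by length they stood at 5.42 ± 2.70 and 9.55 ± 2.52 CPM.

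For GB-IL, the type I chains, the type V chain Col5a2 and the basement membrane chains Col4a1, Col4a2 and Col4a5 were higher in most livers than in DIO, whereas Col27a1 was lower in all 4 and Col5a3 in 3 of 4. None of these differences passed the false discovery rate (FDR) of 0.05 in the quasi-likelihood test of edgeR, adjusted by Benjamini-Hochberg over the 14252 genes tested. Of 26 collagens, 0 were called higher and 0 lower, against 3.15% and 0.112% of all genes. The smallest adjusted p was 0.0593. At an unadjusted p below 0.05, 10 were higher and 3 lower, where all genes gave 16.7% and 6.43%. Without Col7a1, Col8a1 and Col22a1, which passed the filter through GB-IL, 8 of 23 were higher and 3 lower. The log2 fold change was positive for 19 of 26, against 53.1% of all genes, with a median of 0.73 against 0.04 over all genes, and without those 3 genes it was positive for 16 of 23 with a median of 0.31. DESeq2 called 4 of the 26 and edgeR's exact test 4, in both tools Col1a2, Col4a1 and Col5a2 higher and Col27a1 lower. Over all genes these tools called 7.77% and 7.24% higher and 1.3% and 0.667% lower. Limma's voom with sample quality weights called 3 (Col1a2, Col5a2 and Col8a1, all higher), where it called 3.58% of all genes higher and 0.554% lower. GB-IL liver 4 weighed on these counts. Without it, the quasi-likelihood test called 7 of 27 collagens, with Col1a2, Col4a1, Col5a2 and Col22a1 higher and Col14a1, Col27a1 and Col5a3 lower. All genes rose to 15.4% higher and 9.27% lower in that fit, so these shares were near those of genes in general. Without RYGB liver 5, which enters through the shared estimate of spread, it called 3 (Col6a1, Col5a2 and Col4a1, all higher), with 3.26% of all genes higher and 0.156% lower. Liver tissue holds many cell types, and in such bulk RNA fewer cells of a type and less RNA per cell cannot be told apart.

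Among the fibrillar chains tested, 6 of 8 had a positive log2 fold change in GB-IL, with a class median of 0.77. Col1a1 (ENSMUSG00000001506, chromosome 11, 94936224 to 94953042) and Col1a2 (ENSMUSG00000029661, chromosome 6, 4504814 to 4541544) encode the chains of type I collagen. Col1a1 lay at 0.941, 0.307, 1.43, 0.819 and 0.637 RPKM in DIO livers 1 to 5, at 2.55, 0.370, 4.26 and 2.46 in GB-IL livers 1 to 4 and at 0.841, 1.36, 0.740, 2.19 and 3.85 in RYGB livers 1 to 5. GB-IL livers 1, 3 and 4 were above every DIO liver and liver 2 lay within the DIO range (log2 fold change 1.54, standard error 0.60, adjusted p = 0.152). Col1a2 lay at 0.973, 0.475, 0.909, 0.833 and 0.654 RPKM in DIO livers 1 to 5, at 2.34, 0.573, 2.86 and 1.82 in GB-IL livers 1 to 4 and at 0.951, 1.09, 0.873, 1.52 and 2.47 in RYGB livers 1 to 5. The same 3 GB-IL livers were above every DIO liver and liver 2 again was not (log2 fold change 1.30, standard error 0.40, adjusted p = 0.0829, edgeR). Without GB-IL liver 2, the log2 fold changes were 1.88 for Col1a1 and 1.59 for Col1a2, and without GB-IL liver 3 they were 1.12 and 1.04.

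Col3a1 (ENSMUSG00000026043, chromosome 1, 45311538 to 45349706) encodes type III collagen, which is laid down with type I in portal tracts and scars. It lay at 2.94, 1.41, 2.20, 1.59 and 1.21 RPKM in DIO livers 1 to 5, at 2.16, 0.0921, 5.35 and 5.51 in GB-IL livers 1 to 4 and at 1.98, 2.79, 2.74, 5.14 and 7.32 in RYGB livers 1 to 5. GB-IL livers 3 and 4 were above every DIO liver, liver 1 lay among them, and liver 2, with 16 counts, was below every one, so the group spanned the whole range (log2 fold change 0.81, standard error 0.68, adjusted p = 0.457). Without GB-IL liver 2 the log2 fold change was 1.20, and without liver 3 or 4 it was 0.47 or 0.44.

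The type V chains, which join type I collagen in its fibrils and limit their diameter, did not move together. Col5a2 (ENSMUSG00000026042, chromosome 1, 45374321 to 45503282) lay at 0.387, 0.210, 0.191, 0.165 and 0.165 RPKM in DIO livers 1 to 5, at 0.646, 0.300, 0.606 and 0.569 in GB-IL livers 1 to 4 and at 0.428, 0.422, 0.378, 0.561 and 0.942 in RYGB livers 1 to 5. GB-IL livers 1, 3 and 4 were above every DIO liver, and liver 2 was below DIO liver 1 alone (log2 fold change 1.24, standard error 0.34, adjusted p = 0.0598). Col5a1 lay at 0.931, 0.690, 0.683, 0.713 and 0.628 RPKM in DIO, 1.05, 0.452, 0.854 and 1.16 in GB-IL and 0.779, 1.28, 0.813, 1.41 and 2.96 in RYGB. Of the GB-IL livers, 1 and 4 were above every DIO liver and liver 2 was below (log2 fold change 0.27, standard error 0.36, adjusted p = 0.649). Leaving out a GB-IL liver gave 0.10 (liver 4) to 0.47 (liver 2). Col5a3 (ENSMUSG00000004098, chromosome 9, 20770050 to 20815067) had the highest level of the fibrillar class in DIO. It lay at 9.72, 7.25, 6.32, 7.61 and 5.85 RPKM in DIO livers 1 to 5, at 0.216, 0.257, 2.35 and 6.08 in GB-IL livers 1 to 4 and at 2.48, 12.0, 7.37, 7.90 and 4.21 in RYGB livers 1 to 5. GB-IL livers 1, 2 and 3 were below every DIO liver, the first pair with 28 and 31 counts, and liver 4 lay within the DIO range (log2 fold change -1.71, standard error 0.75, adjusted p = 0.191). Leaving out liver 4 gave a log2 fold change of -2.95 with an adjusted p of 0.0118 by edgeR.

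Col27a1 (ENSMUSG00000045672, chromosome 4, 63214004 to 63334991) encodes type XXVII, a fibrillar collagen known chiefly from cartilage. It lay at 1.39, 2.89, 1.85, 1.59 and 1.99 RPKM in DIO livers 1 to 5, at 0.145, 0.208, 0.651 and 1.08 in GB-IL livers 1 to 4 and at 0.907, 2.43, 1.18, 2.00 and 0.803 in RYGB livers 1 to 5. All 4 GB-IL livers were below every DIO liver, with livers 1 and 2 lowest (log2 fold change -1.88, standard error 0.52, adjusted p = 0.0593, edgeR). It was the fibrillar gene with the smallest p in this comparison and the single collagen of the 26 that was lower in GB-IL without overlap, where 1.51% of all genes were. Col11a2, a minor chain of cartilage fibrils, stood 0.73 above DIO on the log2 scale (standard error 0.41, adjusted p = 0.286).

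The promoters of 4 collagens that took different courses in GB-IL are printed here, each as the 250 bases before the RefSeq start (GRCm38.p6), read 5′ to 3′ on the strand of the gene. Col5a3 and Col27a1 were lower, Col8a1 was higher in 3 of 4 livers, and Col3a1 varied most between the GB-IL livers. Capitals mark matches on either strand to 3 motifs, the CCAAT box, the GC box spelled GGGCGG and the TATA box spelled TATAAA. A GC box on the opposite strand appears as its reverse complement.
Col5a3 (chr9:20815068-20815317, minus strand): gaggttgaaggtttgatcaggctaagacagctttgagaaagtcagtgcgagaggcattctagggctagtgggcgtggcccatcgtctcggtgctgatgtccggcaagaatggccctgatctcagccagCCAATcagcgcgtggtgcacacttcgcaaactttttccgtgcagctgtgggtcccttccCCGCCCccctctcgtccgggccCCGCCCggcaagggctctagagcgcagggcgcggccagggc
Col27a1 (chr4:63215162-63215411, plus strand): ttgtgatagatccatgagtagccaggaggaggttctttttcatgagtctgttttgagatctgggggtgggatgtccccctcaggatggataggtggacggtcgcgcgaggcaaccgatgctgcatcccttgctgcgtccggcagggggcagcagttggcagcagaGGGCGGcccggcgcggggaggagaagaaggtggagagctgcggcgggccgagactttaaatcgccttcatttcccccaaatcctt
Col8a1 (chr16:57754738-57754987, minus strand): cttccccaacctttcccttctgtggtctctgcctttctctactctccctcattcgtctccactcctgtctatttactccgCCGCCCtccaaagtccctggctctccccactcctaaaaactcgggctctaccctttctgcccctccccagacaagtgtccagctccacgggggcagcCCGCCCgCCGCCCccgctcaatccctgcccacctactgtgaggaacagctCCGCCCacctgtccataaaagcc
Col3a1 (chr1:45311288-45311537, plus strand): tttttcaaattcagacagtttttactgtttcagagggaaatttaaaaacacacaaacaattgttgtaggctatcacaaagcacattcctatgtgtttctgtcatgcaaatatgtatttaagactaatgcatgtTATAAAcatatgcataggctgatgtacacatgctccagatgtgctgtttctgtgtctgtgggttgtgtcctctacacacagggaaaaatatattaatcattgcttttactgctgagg
Counting the base before the start as -1, Col5a3 held a CCAAT box from -122 and GC boxes from -63 and -41. Col27a1 held a GC box from -85, Col8a1 held GC boxes from -170, -73, -66 and -23, and Col3a1 held a TATA box from -117. RefSeq gave 34 such windows for 32 of the 41 collagens. Overlapping matches were counted. The CCAAT box was in 11 of the 34 and in 33.9% of 32841 promoter windows of all genes, the GC box in 21 and in 32.7%, and the TATA box in 5 and in 12.4%. A match describes the letters in these windows and not the binding of a factor.

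Among the basement membrane chains, 3 of 4 tested had a positive log2 fold change in GB-IL, with a class median of 0.98. Col4a1 (ENSMUSG00000031502, chromosome 8, 11198423 to 11312826) and Col4a2 (ENSMUSG00000031503, chromosome 8, 11312805 to 11449287) encode the chains of the type IV network found in nearly all basement membranes. They are read in opposite directions, and their first exons in the annotation share the 22 bases from 11312805 to 11312826. On the plus strand these bases, shown because a read over them overlaps exons of both genes, are
Col4a1 and Col4a2 shared exon: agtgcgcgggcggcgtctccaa
Col4a1 lay at 4.86, 2.83, 2.54, 4.93 and 3.65 RPKM in DIO livers 1 to 5, at 15.3, 8.05, 5.99 and 5.50 in GB-IL livers 1 to 4 and at 7.08, 4.51, 4.48, 5.80 and 13.3 in RYGB livers 1 to 5. All 4 GB-IL livers were above every DIO liver and liver 1 was highest (log2 fold change 1.21, standard error 0.37, adjusted p = 0.0813). Col4a2 lay at 3.48, 2.13, 2.31, 3.44 and 2.80 RPKM in DIO livers 1 to 5, at 9.80, 4.30, 3.39 and 4.03 in GB-IL livers 1 to 4 and at 5.68, 4.31, 4.15, 4.56 and 10.8 in RYGB livers 1 to 5. GB-IL livers 1, 2 and 4 were above every DIO liver and liver 3 was within their range (log2 fold change 0.92, standard error 0.34, adjusted p = 0.134). Without GB-IL liver 1 the log2 fold changes fell to 0.79 for Col4a1 and 0.46 for Col4a2.

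The chains of specialised basement membranes, such as that of the kidney glomerulus, were far less abundant. Col4a5 lay at 0.109, 0.0879, 0.106, 0.0674 and 0.0859 RPKM in DIO, 0.180, 0.101, 0.234 and 0.231 in GB-IL and 0.0814, 0.242, 0.0996, 0.228 and 0.149 in RYGB. GB-IL livers 1, 3 and 4 were above every DIO liver (log2 fold change 1.03, standard error 0.37, adjusted p = 0.125). Col4a3 lay at 0.0735, 0.0889, 0.0664, 0.0681 and 0.0965 RPKM in DIO, 0.0369, 0.0227, 0.0723 and 0.0518 in GB-IL and 0.0549, 0.0742, 0.0671, 0.0581 and 0.0521 in RYGB, so that GB-IL livers 1, 2 and 4 were below every DIO liver (log2 fold change -0.75, standard error 0.32, adjusted p = 0.187). An antisense gene, C430014B12Rik, accounts with its exons for 5.65% of the Col4a3 exon bases, and the strand setting of the counting is not given in the sources used here, so reads there cannot be assigned.

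Of the other collagens, 10 of 14 had a positive log2 fold change in GB-IL, with a median of 0.30. Type VI collagen forms beaded filaments around cells and is abundant in the liver's connective tissue. Its chain Col6a1 (ENSMUSG00000001119, chromosome 10, 76708792 to 76726168) lay at 2.02, 1.37, 1.95, 2.00 and 1.45 RPKM in DIO livers 1 to 5, at 5.16, 2.95, 4.02 and 2.44 in GB-IL livers 1 to 4 and at 2.90, 2.62, 2.18, 3.84 and 12.4 in RYGB livers 1 to 5. All 4 GB-IL livers were above every DIO liver (log2 fold change 1.05, standard error 0.44, adjusted p = 0.174). Its partner Col6a2 lay at 0.610, 0.366, 0.666, 0.598 and 0.393 RPKM in DIO livers 1 to 5, at 1.03, 0.909, 1.40 and 0.873 in GB-IL livers 1 to 4 and at 0.992, 0.859, 0.491, 1.31 and 2.86 in RYGB livers 1 to 5. Again all 4 GB-IL livers were above every DIO liver (log2 fold change 1.00, standard error 0.40, adjusted p = 0.157). Col4a1, Col6a1 and Col6a2 were the 3 collagens of 26 that were higher in GB-IL without overlap, where 2.67% of all genes were. The third main chain, Col6a3, stood 0.30 above DIO on the log2 scale (standard error 0.30, adjusted p = 0.535) and overlapped.

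Col8a1, a network-forming chain of vessel walls, and Col22a1, a fibril-associated chain of tissue junctions, had the smallest p-values of this class in GB-IL. Col8a1 lay at 0.0401, 0.0251, 0.0715, 0.00722 and 0.0184 RPKM in DIO livers 1 to 5, at 0.0738, 0.0577, 0.168 and 0.0942 in GB-IL livers 1 to 4 and at 0.0489, 0.0504, 0.0899, 0.132 and 0.0486 in RYGB livers 1 to 5. GB-IL livers 1, 3 and 4 were above every DIO liver (log2 fold change 1.59, standard error 0.53, adjusted p = 0.104), at 31 counts in a liver at most. Col22a1 lay at 0.0682, 0.0481, 0.0498, 0.0246 and 0.0418 RPKM in DIO livers 1 to 5, at 0.0913, 0.233, 0.0922 and 0.0481 in GB-IL livers 1 to 4 and at 0.0356, 0.0429, 0.0612, 0.0315 and 0.0376 in RYGB livers 1 to 5. GB-IL liver 2 was highest and liver 4 lay within the DIO range (log2 fold change 1.29, standard error 0.43, adjusted p = 0.104). Without liver 2 its log2 fold change was 0.70. Both genes passed the filter on low counts through the GB-IL livers, so their higher values there are partly fixed by that filter.

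Col18a1 and Col14a1 carried most of the RPKM of the other class. Col18a1 lay at 114, 123, 139.8, 162 and 138 RPKM in DIO livers 1 to 5, at 149.6, 129, 174 and 105 in GB-IL livers 1 to 4 and at 146, 143, 135, 169 and 122 in RYGB livers 1 to 5. The 3 groups overlapped throughout, and the log2 fold changes were 0.04 (standard error 0.20) for GB-IL and 0.08 (standard error 0.19) for RYGB, with edgeR adjusted p-values of 0.907 and 0.929. The direction for GB-IL turned to between -0.08 and 0.00 when DIO liver 1 or GB-IL liver 1 or 3 was left out. Col14a1, a fibril-associated chain that binds fibril surfaces, lay at 10.3, 6.93, 6.32, 7.24 and 5.997 RPKM in DIO livers 1 to 5, at 2.73, 1.58, 4.23 and 10.3 in GB-IL livers 1 to 4 and at 5.22, 7.12, 7.41, 9.81 and 10.7 in RYGB livers 1 to 5. GB-IL livers 1, 2 and 3 were below every DIO liver, whereas liver 4 was near the highest of them (log2 fold change -0.65, standard error 0.41, adjusted p = 0.336). Without liver 4 the log2 fold change was -1.38 with an adjusted p of 0.00862 by edgeR, and without liver 2 it was -0.37 with an adjusted p of 0.599. The remaining tested genes of this class had log2 fold changes between -0.68 (Col15a1, the other multiplexin) and 1.21 (Col13a1, a transmembrane chain), with Col12a1, Col6a6, Col16a1, Col20a1 and Col7a1 between them and edgeR adjusted p-values from 0.254 to 0.826.

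Col13a1 was singled out after its values were seen. It lay at 0.614, 0.898, 0.707, 1.84 and 1.29 RPKM in DIO, 7.20, 1.42, 0.764 and 0.569 in GB-IL and 1.71, 0.514, 1.04, 1.01 and 1.59 in RYGB. GB-IL liver 1 alone was above the DIO range, and without it the log2 fold change was -0.23.

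**Figure D2:**
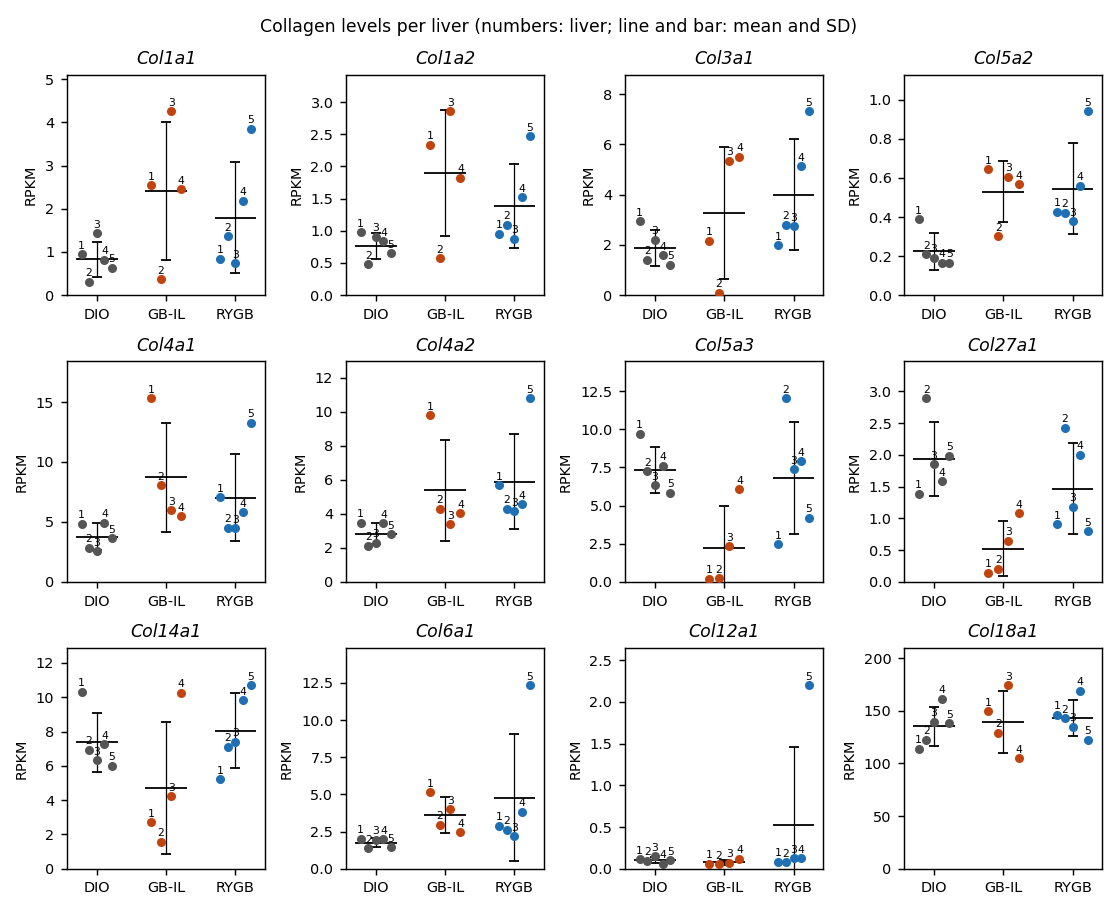
Levels of 12 collagens in each liver (RPKM, linear axis from 0), by group, with the liver number beside each point and the group mean and SD as a line and bar. Col4a1 and Col6a1 of GB-IL lie above every DIO liver and Col27a1 below, GB-IL liver 4 lies with DIO for Col5a3 and Col14a1, and RYGB liver 5 stands above the other RYGB livers for Col4a1, Col4a2, Col6a1 and Col12a1.

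For RYGB, the type V chain Col5a2, the type VI chains Col6a1 and Col6a2 and the basement membrane chains Col4a2 and Col4a1 were higher than in DIO in at least 3 of 5 livers. No collagen passed the FDR in edgeR's quasi-likelihood test. Of 26 collagens 0 were called in either direction (0% of all genes either way), the smallest adjusted p was 0.331, and 1241 of all 14252 genes had an unadjusted p below 0.05. DESeq2 called 0.449% of all genes higher and 0.232% lower, and of the collagens 1 (Col5a2, higher). Voom with sample quality weights called 6.08% and 5.77%, and of the collagens 5 (Col4a2, Col5a1, Col5a2, Col6a1 and Col8a1, all higher). The exact test of edgeR called 0.175% and 0.126%, and of the collagens 0. At an unadjusted p below 0.05, 10 collagens were higher and 0 lower, against 5.35% and 3.36% of all genes. Without RYGB liver 5, 6 were higher and 0 lower, and 5.19% of all genes passed either way. The log2 fold change was positive for 21 of 26 (51.5% of all genes), with a median of 0.53 against 0.01. Class medians were 0.92 for the fibrillar, 0.85 for the basement membrane and 0.35 for the other collagens. This comparison shares its 5 DIO livers with the GB-IL comparison.

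Several RYGB differences were smaller without RYGB liver 5. Col5a2 was above every DIO liver in RYGB livers 1, 2, 4 and 5, with liver 3 within the DIO range (log2 fold change 1.29, standard error 0.33, adjusted p = 0.331). Without liver 5 its log2 fold change was 1.00. Col6a1 was above every DIO liver in all 5, from 2.18 RPKM in liver 3 to 12.4 in liver 5 (log2 fold change 1.45, standard error 0.42, adjusted p = 0.383). Without liver 5 it fell to 0.72. Col6a2 was above every DIO liver in 4 of 5 (log2 fold change 1.31, standard error 0.38, adjusted p = 0.383), at 0.80 without liver 5. Col4a2 was above every DIO liver in all 5 (log2 fold change 1.06, standard error 0.33, adjusted p = 0.416), and without liver 5 its log2 fold change was 0.73. Col6a1 and Col4a2 were the 2 collagens higher in RYGB without overlap, where 1.87% of all genes were, and 0 were lower, where 1.66% were.

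For the other fibrillar chains after RYGB, values were less separated from DIO. Col1a1 had RYGB livers 4 and 5 above every DIO liver (log2 fold change 1.12, standard error 0.57, adjusted p = 0.604), and Col1a2 had livers 2, 4 and 5 above (log2 fold change 0.85, standard error 0.38, adjusted p = 0.551). Col3a1 had livers 4 and 5 above (log2 fold change 1.10, standard error 0.65, adjusted p = 0.661). Col5a1 had livers 2, 4 and 5 above (log2 fold change 0.99, standard error 0.35, adjusted p = 0.468). Without RYGB liver 5 these values fell to 0.65 for Col1a1, 0.54 for Col1a2, 0.77 for Col3a1 and 0.57 for Col5a1. Col5a3 and Col27a1, both low in GB-IL, overlapped DIO after RYGB, at log2 differences of -0.11 (standard error 0.67, adjusted p = 0.974) and -0.41 (standard error 0.46, adjusted p = 0.838), and the small negative value for Col5a3 turned positive without DIO liver 1, RYGB liver 1 or RYGB liver 5 and under voom. In the basement membrane class, Col4a1 had livers 1, 4 and 5 above every DIO liver (log2 fold change 0.90, standard error 0.35, adjusted p = 0.515) and Col4a5 livers 2, 4 and 5 (log2 fold change 0.80, standard error 0.35, adjusted p = 0.547). Without RYGB liver 5 the value for Col4a1 was 0.55.

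Col12a1, a fibril-associated chain, had the largest positive log2 fold change of any collagen after RYGB and was singled out after its values were seen. It lay at 0.113, 0.0969, 0.147, 0.0594 and 0.101 RPKM in DIO livers 1 to 5, at 0.0586, 0.0556, 0.0724 and 0.119 in GB-IL livers 1 to 4 and at 0.0826, 0.0810, 0.125, 0.128 and 2.20 in RYGB livers 1 to 5. RYGB liver 5, with 969 counts, was far above every other liver and the other 4 lay within the DIO range (log2 fold change 2.34, standard error 0.85, adjusted p = 0.481). Without liver 5 the log2 fold change was 0.02.

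**Figure D3:**
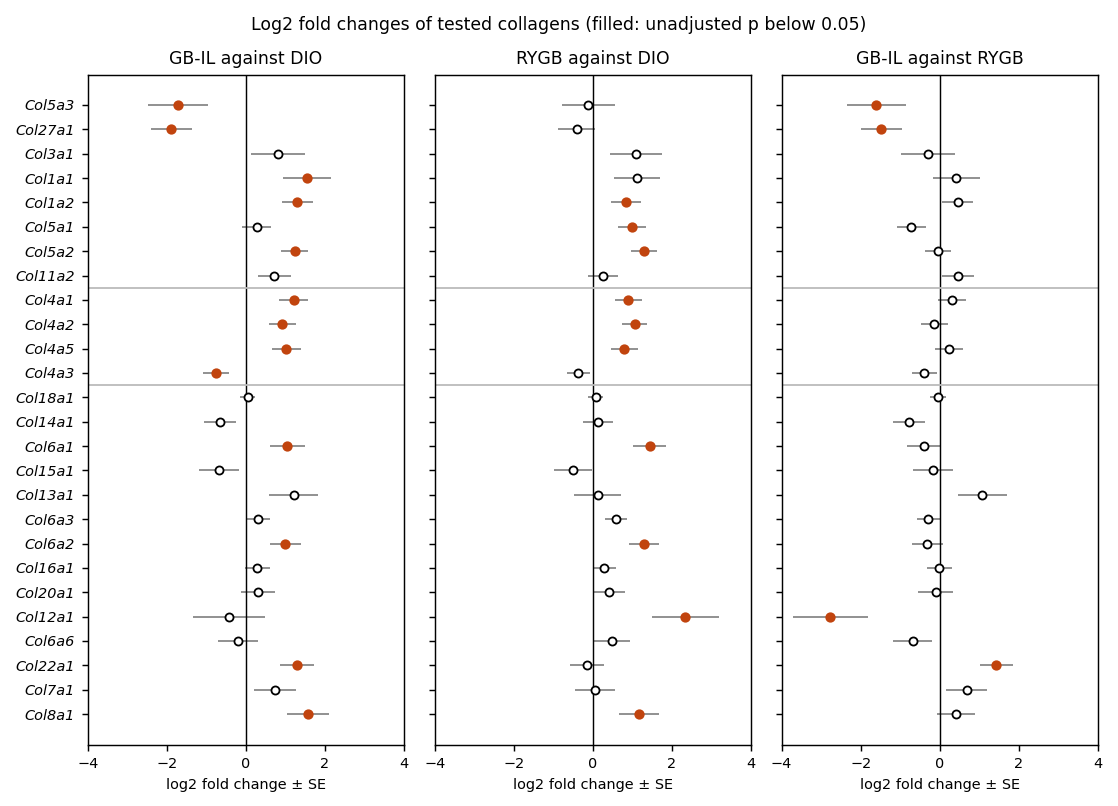
Log2 fold change (points) with its standard error (bars) for the 26 tested collagens in the 3 comparisons, from edgeR's quasi-likelihood fit of all 14 livers. The standard errors were derived from the F statistic of the test. Rows run from fibrillar to basement membrane to other, filled points have an unadjusted p below 0.05, and none passed the FDR of 0.05. Most points lie right of 0 against DIO, with Col27a1 and Col5a3 to the left in GB-IL.

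Set against each other, the operations gave their smallest p-values for Col22a1, Col12a1, Col27a1 and Col5a3. Col22a1 was tested through the GB-IL livers in which it was high, so its place there is partly fixed by the filter. Of 26 collagens 0 were called in either direction (0% of all genes either way) by the quasi-likelihood test, with the smallest adjusted p at 0.111, and 3147 of all genes had an unadjusted p below 0.05. DESeq2 called 4.59% of all genes higher and 1.34% lower, and of the collagens 1 (Col27a1, lower). Voom called 0.779% and 0.0281% and edgeR's exact test 3.96% and 0.793%, and of the collagens 0 each. At an unadjusted p below 0.05, 1 collagen was higher in GB-IL (Col22a1) and 3 were lower (Col12a1, Col27a1 and Col5a3), against 15.3% and 6.77% of all genes. Without the 3 genes kept through GB-IL, 0 of 23 were higher and 3 lower. The log2 fold change was positive for 9 of 26 (52.5% of all genes), with a median of -0.12 against 0.03, and this median became 0.18 without RYGB liver 5. No collagen was separated without overlap in either direction, where 1.27% and 1.57% of all genes were.

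Col27a1 was lower in GB-IL livers 1, 2 and 3 than in every RYGB liver (log2 fold change -1.48, standard error 0.51, adjusted p = 0.141), and so was Col5a3 (log2 fold change -1.60, standard error 0.75, adjusted p = 0.225). Col22a1 was higher in GB-IL livers 1, 2 and 3 than in every RYGB liver (log2 fold change 1.43, standard error 0.43, adjusted p = 0.111), and its log2 fold change without GB-IL liver 2 was 0.84. Without GB-IL liver 4 these 3 genes and Col14a1 passed the FDR, with log2 fold changes of -2.12 for Col27a1, -2.84 for Col5a3, 1.69 for Col22a1 and -1.51 for Col14a1. In that fit 13.4% of all genes were called higher and 8.09% lower. Col12a1 rested on RYGB liver 5, with a GB-IL minus RYGB value of -2.77 on the log2 scale (standard error 0.94, adjusted p = 0.138) that became -0.46 without it. The chains Col1a1, Col1a2, Col4a1, Col4a2, Col6a1 and Col6a2, whose log2 fold changes against DIO were positive after both operations without passing the test, had log2 fold changes between -0.40 (Col6a1) and 0.46 (Col1a2) here, with adjusted p-values from 0.482 to 0.826 by edgeR.

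The basement membrane class, made of type IV chains alone, was the one class sum in which both operated groups lay apart from DIO. The summed level of these chains was 8.55, 5.22, 5.06, 8.55 and 6.64 RPKM in DIO livers 1 to 5, 25.5, 12.5, 9.72 and 9.89 in GB-IL livers 1 to 4 and 12.9, 9.20, 8.82, 10.7 and 24.3 in RYGB livers 1 to 5. Every operated liver was above every DIO liver, with GB-IL liver 1 and RYGB liver 5 highest. Of all genes tested singly, 2.67% in GB-IL and 1.87% in RYGB were higher than DIO without overlap. The multiplexins Col18a1 and Col15a1 of the other class overlapped DIO after both operations. Group means were 6.80 ± 1.71 RPKM (SD, n = 5) in DIO, 14.4 ± 7.51 (n = 4) in GB-IL and 13.2 ± 6.41 (n = 5) in RYGB, and these sums, made almost wholly of Col4a1 and Col4a2, were not tested. The log2 ratio of means was 1.08 for GB-IL and 0.66 without GB-IL liver 1, and 0.95 for RYGB and 0.61 without RYGB liver 5.

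The fibrillar sum hid opposite courses. It was 17.5, 13.4, 13.8, 13.5 and 11.3 RPKM in DIO, 9.38, 2.64, 17.2 and 18.8 in GB-IL and 8.53, 21.6, 14.3, 20.99 and 22.9 in RYGB. GB-IL livers 1 and 2 were below every DIO liver, liver 4 was above and liver 3 within, and RYGB livers 2, 4 and 5 were above with liver 1 below. In DIO the sum was mainly Col5a3, the chain that was low in GB-IL livers 1 and 2. The sum of the other collagens without Col18a1 was 13.8 ± 2.39 RPKM (SD, n = 5) in DIO, 15.1 ± 4.87 (n = 4) in GB-IL and 19.0 ± 8.07 (n = 5) in RYGB. The log2 ratio of means for RYGB was 0.46, and 0.17 without RYGB liver 5.

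**Figure D4:**
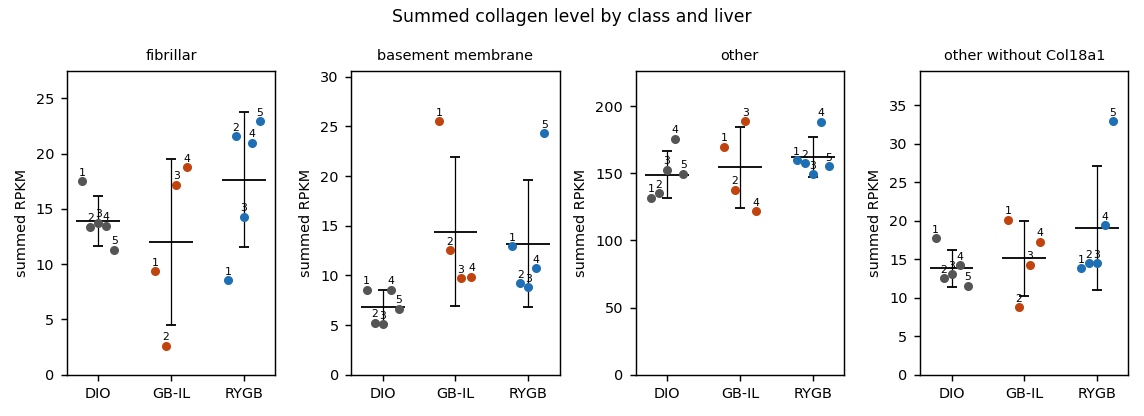
Summed RPKM of each collagen class in each liver, by group, with liver numbers and the group mean and SD. Every operated liver lies above every DIO liver for the basement membrane class (type IV chains alone), and the groups overlap for the fibrillar and other classes.

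Ratios of RPKM between chains show which chains kept step. The size of a ratio depends on the exon lengths used, which are the same for every liver. Col1a1 to Col1a2 stayed between 0.646 and 1.57 over all 14 livers and overlapped between groups. Col6a1 to Col6a2 averaged 3.40 ± 0.328 (SD, n = 5) in DIO, 3.48 ± 1.02 (n = 4) in GB-IL and 3.53 ± 0.775 (n = 5) in RYGB, with overlap between the groups. Col5a1 to Col5a2, both of type V, averaged 3.48 ± 0.709 in DIO, 1.64 ± 0.280 in GB-IL and 2.54 ± 0.567 in RYGB. All 4 GB-IL livers, at 1.41 to 2.05, were below every DIO liver, at 2.40 to 4.32. The log2 ratio of the GB-IL and DIO means was -1.08 and lay between -1.20 and -0.99 when each liver was left out in turn.

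Col4a1 to Col4a2 averaged 1.31 ± 0.131 in DIO, 1.64 ± 0.225 in GB-IL and 1.17 ± 0.103 in RYGB. GB-IL livers 1, 2 and 3 were above every DIO liver and liver 4 lay within the DIO range. Col3a1 to Col1a1 averaged 2.62 ± 1.26 in DIO, 1.15 ± 0.838 in GB-IL and 2.47 ± 0.716 in RYGB. GB-IL livers 1, 2 and 3 were below every DIO liver and liver 4 was within. The ratio of Col3a1 to Col1a2 was less separated, at 2.44 ± 0.561 in DIO, 1.49 ± 1.24 in GB-IL and 2.83 ± 0.509 in RYGB. For it GB-IL livers 1 and 2 were below every DIO liver, and livers 3 and 4 lay within the DIO range. These ratios were not tested.

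**Figure D5:**
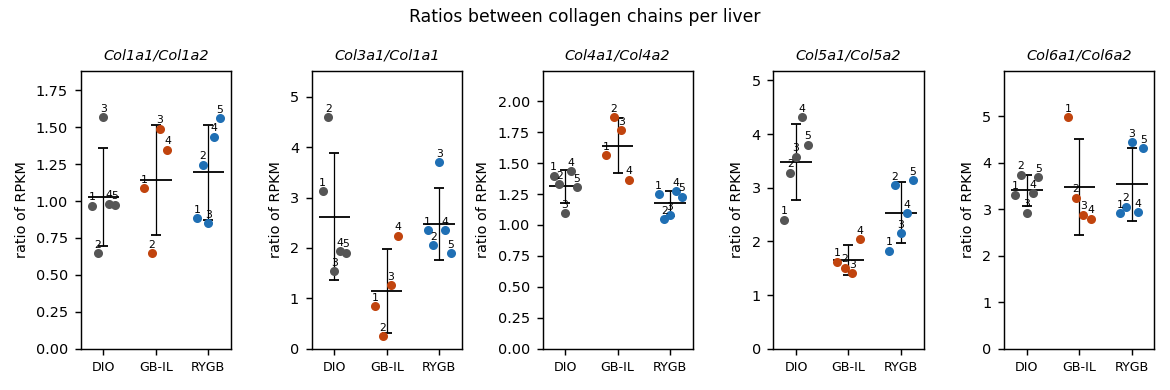
Ratios of the RPKM of chain pairs in each liver (linear axis from 0), by group, with liver numbers and the group mean and SD. For Col5a1/Col5a2 the 4 GB-IL livers lie below the 5 DIO livers, and for Col1a1/Col1a2 the groups share 1 range.

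The spread between livers was wider for the tested collagens than for all tested genes, which were not matched for level. Several tested collagens had few counts, such as Col8a1 with 25 and Col7a1 with 38 over the DIO livers. Few counts alone widen log2 values, and their part in this spread was not tested. The median SD of log2 CPM within a group was 0.411 for the tested collagens against 0.297 for all tested genes in DIO, 0.793 against 0.584 in GB-IL and 0.623 against 0.307 in RYGB. Within GB-IL, the collagen SDs ran from 0.306 to 2.77.

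The 15 collagens with too few counts had at most 110 counts over all livers and received no model test. For these, counts are summed per group and the ratio of rates to DIO has an exact 95% Clopper-Pearson interval that covers counting error only and not the spread between livers. They are Col2a1 and Col24a1 of the fibrillar class, Col4a4 and Col4a6 of the basement membrane class, and Col6a4, Col6a5, Col8a2, Col9a2, Col9a3, Col10a1, Col17a1, Col23a1, Col25a1, Col26a1 and Col28a1 of the other class. All ratios named here were picked after their values were seen.

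Col17a1, a transmembrane collagen that anchors skin-type epithelium to its basement membrane, had 7 counts in DIO, 4 in RYGB and 70 in GB-IL, of which 65 were in GB-IL liver 1 (rate ratio of GB-IL to DIO 11.2 (95% interval 5.14 to 28.8)). Markers of squamous epithelium, the tissue in which it is best known, summed to 195 CPM in the same liver and to at most 0.104 CPM in DIO. The median of this sum over the 4 GB-IL livers was 9.56 CPM, so it was not confined to liver 1. Its lowest GB-IL value, 0.153 CPM, was also above every DIO liver. That value and the highest DIO value are both near 0, so they do not show a trait of all 4 GB-IL livers. Col4a6, a basement membrane chain, had 12 counts in DIO, 42 in GB-IL and 26 in RYGB (rate ratio of GB-IL to DIO 3.91 (95% interval 2.02 to 8.15)). Col4a6 counts were 20, 8, 5 and 9 in GB-IL livers 1 to 4 and no more than 3 in any DIO liver.

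Col6a5, an alternative type VI chain, had 3 counts in DIO, all in liver 3, against 40 in GB-IL (14.9 (95% interval 4.74 to 75.2)) and 30 in RYGB (8.13 (95% interval 2.53 to 41.6)). Every RYGB liver had at least 3 counts. Col25a1, a transmembrane chain, had 11 counts in DIO and 53 in RYGB (3.92 (95% interval 2.02 to 8.31)), of which 27 were in RYGB liver 3. Lower rates in GB-IL were seen for Col24a1 (0.484 (95% interval 0.232 to 0.955)) and Col26a1 (0.209 (95% interval 0.0391 to 0.731)). Col2a1, the cartilage collagen, had 0 counts in every liver but GB-IL liver 1, which had 4, and Col6a4 had 0 in DIO, 2 in GB-IL and 3 in RYGB. The intervals of all other ratios that could be formed for these genes included 1.

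Genes that make, process, bind or break down collagen were listed apart from the family, and 55 of 66 had enough counts. In GB-IL, 8 of the 55 rose past the FDR and 0 fell, against 3.15% and 0.112% of all genes, and in RYGB 0 passed either way, as for all genes (0%). Of the enzymes that degrade collagen and their inhibitors, 5 of 8 rose: Mmp2, Mmp8, Mmp9, Mmp14 and Timp2. Their median log2 fold change was 1.63. Mmp2, a gelatinase, stood at 1.99 ± 0.408 in DIO (CPM, mean ± SD of 5) against 9.51 ± 7.82 in GB-IL (of 4) (log2 fold change 2.25, standard error 0.43, adjusted p = 0.0278). Mmp9, the other gelatinase, stood at 0.901 ± 0.313 in DIO (CPM, mean ± SD of 5) against 8.28 ± 5.77 in GB-IL (of 4) (log2 fold change 3.19, standard error 0.69, adjusted p = 0.0310); 3 GB-IL livers exceeded the DIO range and 1 was under it. Of the processing and cross-linking genes 1 of 10 rose, with a list median of 0.65. This was Lox, which cross-links collagen fibrils, at 0.134 ± 0.167 in DIO (CPM, mean ± SD of 5) against 1.92 ± 2.24 in GB-IL (of 4) (log2 fold change 3.79, standard error 0.87, adjusted p = 0.0340). Mmp8 and Lox averaged 0.0815 and 0.134 CPM in DIO, under the 0.492 CPM asked for by the filter. Both passed it through operated livers, where they were higher on average, so their calls are partly fixed by that filter. Adamts2, which trims procollagen, stood 0.92 higher on the log2 scale (adjusted p = 0.0781, edgeR).

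Of the collagen receptors 1 of 7 rose, with a list median of 0.39. Ddr1, a receptor tyrosine kinase for collagen found on epithelium, stood at 1.19 ± 0.194 in DIO (CPM, mean ± SD of 5) against 9.63 ± 6.66 in GB-IL (of 4), without overlap (log2 fold change 3.01, standard error 0.59, adjusted p = 0.0278). Gpr56, an adhesion receptor that binds type III collagen, stood 1.20 higher on the log2 scale (adjusted p = 0.124). Of the fibril-associated matrix genes 1 of 11 rose, with a list median of 0.44. Thbs1, thrombospondin 1, stood at 1.13 ± 0.83 in DIO (CPM, mean ± SD of 5) against 8.92 ± 11.5 in GB-IL (of 4) (log2 fold change 2.97, standard error 0.72, adjusted p = 0.0391), and its log2 fold change without GB-IL liver 1 was 1.47. That of Timp2, an inhibitor of these enzymes, went from 1.20 to 0.67 without the same liver. In this list Fbn1, the microfibril protein fibrillin 1, stood 1.32 higher (adjusted p = 0.0501). Of the 19 synthesis and folding genes 0 passed and 5 were higher at an unadjusted p below 0.05. Their median was 0.06, with Creb3l1, a transcription factor for collagen secretion, at 1.58 (adjusted p = 0.0754) and Crtap, of the prolyl 3-hydroxylase complex, at 0.70 (adjusted p = 0.175). With DESeq2 15 of the 55 passed and with edgeR's exact test 16, while 0 passed with the 2 compared groups only and 0 with the replicate number as a block. All 8 calls were lost without GB-IL liver 1, without GB-IL liver 2 or without any single DIO liver, and 24 passed without GB-IL liver 4.

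Some marker lists of other cells were high in some of the livers with high collagens, but not in all of them. Many of these markers are expressed in more than 1 cell type. The 7 cholangiocyte markers summed to 35.7 to 65.4 CPM in DIO, 69.0 to 300 CPM in GB-IL and 58.7 to 70.6 CPM in RYGB, with Krt19 above 0 in every liver and Cftr at 0 in 1 DIO liver. Most of this was Spp1, at a mean of 36.3 CPM in DIO, 177 in GB-IL and 52.4 in RYGB. In GB-IL 5 of the 6 tested had a positive log2 fold change, and Krt23 was at -0.12. Of these 6, 3 passed the FDR as higher (Spp1, Krt19 and Krt7), against 3.15% of all genes. The 10 stellate cell markers, all above 0 in every liver, summed to 286 to 348 CPM in DIO, 170 to 585 in GB-IL and 319 to 633 in RYGB. The highest sums were those of RYGB liver 5 and GB-IL liver 1, and 227 CPM of the latter were Des, which muscle also expresses. Without Des the range was 281 to 343 CPM in DIO, 164 to 358 in GB-IL and 315 to 628 in RYGB. The lowest of these sums, 164 CPM, was that of GB-IL liver 3, which had the highest Col1a1 and Col1a2 RPKM of all livers (4.26 and 2.86). In GB-IL 5 of the 10 stellate cell markers had a positive log2 fold change, with a median of 0.03. The 5 myofibroblast markers summed to 7.76 to 28.6, 6.03 to 44.0 and 8.44 to 17.8 CPM in DIO, GB-IL and RYGB, and the 6 portal fibroblast markers to 36.7 to 119, 56.5 to 145 and 37.9 to 89.6 CPM. Of these lists, Cnn1 was at 0 in 1 DIO and 1 RYGB liver and Actg2 in 1 DIO liver.

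The 4 vascular endothelial markers summed to 51.2 to 54.0 CPM in DIO, 45.5 to 117 in GB-IL and 48.0 to 261 in RYGB, with RYGB liver 5 highest. This liver also had the highest sum of the 6 sinusoidal endothelial markers, at 506 CPM against 156 to 224 CPM in the other RYGB livers. In GB-IL liver 1, the 4 skeletal muscle markers summed to 1043 CPM and the 3 pancreas markers in the table to 303 CPM, against highest values of 2.28 and 36.5 CPM in DIO. The pancreas value in DIO was that of Cela1. The other pancreas markers, Cpa1 and Prss2, reached at most 0.312 and 0.104 CPM in DIO, against 123 and 132 CPM in GB-IL. Defining markers of such tissues were at 0 elsewhere in part, with Ckm at 0 in all RYGB livers and Krt5, for squamous epithelium, at 0 in all DIO livers. The 6 hepatocyte markers summed to 117119 to 133644 CPM in DIO and to 86152 to 116310 CPM in GB-IL, below every DIO liver. Most of this was Alb, and without it the ranges were 20880 to 30188 and 20464 to 39771 CPM. Of the 6 markers 3 had a positive log2 fold change in GB-IL, and Fgb rose (1.57, adjusted p = 0.0489, edgeR). The 7 macrophage markers summed to 292 to 536, 306 to 1479 and 325 to 821 CPM in DIO, GB-IL and RYGB, and the 6 mesothelial markers to 2.72 to 12.3, 4.58 to 28.9 and 2.13 to 11.01 CPM. The 5 T and B cell markers summed to at most 10.1 CPM in any liver and the 4 adipocyte markers to at most 37.2 CPM. The part of these cells in the collagen values was not tested.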

How the data were processed

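Liver RNA of 14 mice (5 DIO, 4 GB-IL, 5 RYGB) was sequenced on the Illumina HiSeq, with 1 library per liver. The authors describe amplification of total RNA, alignment to mm10 with TopHat 2 and counting with HTSeq. The deposited values are whole read counts per gene, without normalization. Tool versions beyond this, the strand setting and the annotation used for counting are not stated in any source used here. A kit for stranded mRNA and a kit for stranded total RNA (2 in all) appear in the labels, with no word on which liver had which, so kit and group cannot be told apart. The labels call the samples separate livers, and p-values measure the spread between them. All sample columns of the table were used.

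Genes were filtered by edgeR's filterByExpr by group, scaled by TMM and fitted as 3 group means over all 14 livers (quasi-likelihood test, edgeR 4.0.16 in R 4.3.3), with Benjamini-Hochberg adjustment over 14252 genes at an FDR of 0.05. RPKM divide TMM-scaled CPM by the exon length of GENCODE M21, which matched 24701 of the 25212 identifiers and all 41 collagens. The standard error given with a log2 fold change is its size divided by the square root of the F statistic of the quasi-likelihood test. Marker sums are CPM of the total count. Alternatives were upper quartile and RLE scaling, voom with sample quality weights (limma 3.58.1), DESeq2 1.42.0, edgeR's exact test, each liver left out in turn, no filter, a mean of at least 50 counts, a block for the replicate number, and a fit of the 2 compared groups only. Python 3.11.15 with pandas 2.3.3, scipy 1.17.1 and matplotlib 3.10.9 was used for values, intervals and plots. The scripts were tested on simulated data.

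The members, their classes, the pathway lists and the marker lists were chosen with earlier results of these data known. Collagens were named with values by a rule: those past the FDR, in each class the 3 smallest p-values in GB-IL and the 2 in RYGB against DIO, the 3 highest levels in DIO, and both chains of each ratio. From each pathway list the 2 genes with the smallest p in GB-IL were named. Other named genes were chosen after their values were seen, or complete a class, a count of calls or a list.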

Additional observations from a re-analysis of the deposited data

Results flagged for a closer look

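In 10 of 66 groups of livers examined (named collagens and class sums, in RPKM), 1 liver lay farther from its group than Dixon's criterion allows. Chance gives about 1 in 20 for independent, normally distributed values. The RPKM were not put on a log scale, and the class sums hold chains that were also examined. The 10 of 66 can therefore not be read against that rate. In RYGB liver 5, Col12a1 was 2.20 RPKM (next highest RYGB liver 0.128), Col6a1 12.4 (next 3.84), Col4a2 10.8 (next 5.68) and the basement membrane sum 24.3 (next 12.9). In RYGB liver 4, the summed level of the other collagens was 188 RPKM, against 160 in the next. In GB-IL liver 1, Col13a1 was 7.20 RPKM (next 1.42) and Col4a2 9.80 (next 4.30). In DIO liver 1, Col14a1 was 10.3 RPKM (next 7.24), Col5a1 0.931 (next 0.713) and Col5a2 0.387 (next 0.210). All 10 values were the highest of their group. RYGB liver 5 had the highest sums of stellate cell (633 CPM) and vascular endothelial markers (261 CPM) of all livers, and the part of these cells in its collagen values was not tested.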

How the results depend on the processing

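Of the 26 tested collagens, 0 were called in each comparison by the quasi-likelihood test, and also under RLE scaling, upper quartile scaling, no filter, a mean of at least 50 counts and the 2 compared groups only. Counts rose with DESeq2 (4 in GB-IL and 1 in RYGB, each against DIO, and 1 between the operations), edgeR's exact test (4, 0 and 0) and voom (3, 5 and 0). With each liver left out in turn they ran from 0 to 7 for GB-IL against DIO (7 without GB-IL liver 4, 3 without RYGB liver 5) and from 0 to 4 for GB-IL against RYGB (4 without GB-IL liver 4), and stayed at 0 for RYGB against DIO. The median log2 fold change ran from 0.42 to 0.77 over the settings and from 0.45 (without GB-IL liver 1) to 0.90 over the omissions in GB-IL against DIO. It ran from 0.50 to 0.89 and from 0.44 to 0.68 in RYGB against DIO, and from -0.24 to -0.013 and from -0.31 to 0.18 between the operations. Leaving out Col7a1, Col8a1 and Col22a1, a choice made after seeing the data, gave medians of 0.31, 0.59 and -0.18 in these comparisons and 0 calls in each. The causes were not tested.

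The 8 other collagen pathway genes called in GB-IL against DIO became 15 with DESeq2, 16 with the exact test, 0 with the 2 compared groups only and 0 with the replicate block, and 0 to 24 with a liver left out. Of these 8, Mmp8 and Lox passed the filter through operated livers, where they were higher on average. For RYGB against DIO the 0 became 2 with DESeq2 and 13 with voom. For GB-IL against RYGB the 0 became 7 with DESeq2, 7 with the exact test and 1 with no filter, and 0 to 14 with a liver left out.

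Directions turned mainly for differences near 0. Under voom, the log2 fold change became 0.040 for Col22a1, 0.082 for Col5a3 and -0.29 for Col13a1 (RYGB against DIO), -0.35 for Col13a1 (GB-IL against DIO), and -0.058 for Col13a1, 0.022 for Col18a1, 0.20 for Col5a2, 0.15 for Col6a1 and 0.32 for Col6a2 (GB-IL against RYGB). With a liver left out, ranges that crossed 0 were -0.23 to 1.53 for Col13a1 and -0.081 to 0.15 for Col18a1 (GB-IL against DIO), -0.042 to 0.41 for Col13a1, -0.33 to 0.029 for Col22a1 and -0.41 to 0.10 for Col5a3 (RYGB against DIO). Between GB-IL and RYGB they were -0.36 to 1.40 for Col13a1, -0.16 to 0.070 for Col18a1, -0.011 to 0.89 for Col1a1, -0.66 to 0.098 for Col3a1, -0.12 to 0.67 for Col4a1, -0.60 to 0.20 for Col4a2, -0.16 to 0.23 for Col5a2, -0.62 to 0.32 for Col6a1 and -0.52 to 0.19 for Col6a2.

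Between livers of the same replicate number, deviations from the group means had correlations from -0.38 to 0.38. Livers of differing number were not compared in this way, so these values cannot show whether the numbers pair the livers. With the replicate number as a block, 0 collagens were called in each comparison, and the log2 fold change became -0.033 for Col13a1 in RYGB against DIO and 0.052 for Col5a2, 0.077 for Col6a1 and 0.00051 for Col6a2 in GB-IL against RYGB.

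With 4 or 5 livers a group and wide spread in GB-IL and RYGB, differences of the size seen for most collagens could not be told from the spread. The 15 genes with few counts allow no statement beyond their counting intervals. A call missed here does not show that groups were alike.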
